A study of Mus musculus with 12 samples.

Results

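Transcripts of Bach2-deficient (Bach2KO) induced regulatory T cell (iTreg) cultures were set against those of Th1, Th2 and Th17 helper cultures, to ask what the deficient cells held that no helper culture held. The comparison used 6 of the 12 samples of the series: 3 Bach2KO iTreg libraries and 1 library each of Th1, Th2 and Th17 cells. Members were genes whose 3 Bach2KO values all lay above, or all below, the 3 helper values, and genes that matched 1 helper only. Of 11389 loci that could be compared, 3152 lay above and 1926 below all 3 helpers, and 219 and 126 did so with a margin of at least 2-fold. The values themselves chose these members, so they are given as descriptions with no test. Each helper has 1 library, so the spread of helper values was not measured.

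Naive CD4+ cells (CD44-CD25-CD62L+) were sorted from the spleens and lymph nodes of C57BL/6J mice and cultured for 3 days on bound antibodies to CD3 and CD28 at 10 μg/ml each. The helper cells were wild type (WT): Th1 cultures had 20 ng/ml IL-12 and an IL-4-blocking antibody, Th2 cultures 20 ng/ml IL-4 and an IFN-γ-blocking antibody, and Th17 cultures 20 ng/ml IL-6, 2 ng/ml TGF-β1 and both blocking antibodies, each at 10 μg/ml. The Bach2KO cultures had 100 IU/ml IL-2 and 5 ng/ml TGF-β1 and no blocking antibody, as had 3 WT iTreg cultures that are shown beside them. A library of uncultured WT naive cells and a Bach2 chromatin immunoprecipitation (ChIP) from WT iTreg cells, each from 1 sample, were also used. The labels give neither the part of Bach2 that was deleted, nor whether the deletion was limited to T cells, nor whether replicates came from separate animals.

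Bach2 is a repressor of the CNC family of basic leucine zipper proteins. It pairs with small Maf proteins on DNA sites that overlap those of AP-1 factors, and in T cells it is known for keeping effector genes low in naive and regulatory cells. Helper subsets are told apart by lineage factors and the cytokines that they drive, T-bet with IFN-γ in Th1 cells and GATA3 with IL-4 and IL-13 in Th2 cells; Th17 cells make IL-17, while Foxp3 marks regulatory T cells.

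Levels are FPKM, fragments per kilobase of transcript scaled to the mapped reads of the library. Differences are on log2(FPKM + 0.5), a scale that understates changes of genes near 0. The gap of a gene above the helpers is its lowest Bach2KO value minus the highest helper value on that scale, and the gap below is the reverse. Reads implied by the deposited confidence intervals were summed over genes with a single annotated start, so they are a part of the library. They ranged from 12.4 to 14.0 M in helper and from 20.1 to 24.0 M in Bach2KO libraries. The targeted gene Bach2 stood at 3.91, 3.39 and 4.12 FPKM in Bach2KO replicates 1, 2 and 3, and at 26.2 (Th1), 24.1 (Th2) and 64.6 FPKM (Th17). The CD4 T cell genes of a list of 13 summed to between 2955 and 2975 FPKM in Bach2KO and between 2421 and 2684 FPKM in helper libraries.

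Genes of the sex chromosomes also split the libraries. The Y-linked genes Eif2s3y, Ddx3y, Kdm5d and Uty summed, with the rest of a list of 6, to between 55 and 58.5 FPKM in Bach2KO and between 94.9 and 109 FPKM in WT iTreg libraries, and to no more than 0.0286 FPKM in helper and naive libraries. Xist, the RNA that coats the inactive X chromosome of females, was at 134.0 FPKM in Th1, 156 in Th2, 90.4 in Th17 and 48.7 in naive cells and at 0.00949 or less in each iTreg library. Genotype, culture condition and the sex of the source therefore cannot be told apart between Bach2KO and helper libraries. WT iTreg cells share the culture with Bach2KO cells and likewise carry Y-linked RNA without Xist, though at a higher Y-linked sum. Without loci on chromosomes X and Y, an alternative added after the data were seen, 210 loci lay at least 2-fold above and 114 at least 2-fold below.

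Markers of other cells also differed between the libraries. A marker was tested only if its average across the 6 compared libraries reached 0.5 FPKM. That held for 7 of 13 B cell genes found and 7 of 12 dendritic cell and MHC class II genes. On the CD8, natural killer and γδ T cell list it held for 2 of 8. A marker near 0 in all helpers passes only where Bach2KO is high. Counts of tested markers above the helpers therefore follow in part from this rule. B cell markers, of which 6 of 7 tested lay above the helpers, summed to 15.9 to 23.3 FPKM in Bach2KO and 2.34 to 4.18 in helper libraries, and to 20.0 to 87.2 FPKM in WT iTreg libraries. H2-Aa, a chain of MHC class II, was at 17.4, 10.4 and 16.8 FPKM in Bach2KO, at 0.322 or less in helpers and at 49.7, 5.67 and 22.5 in WT iTreg cells, which overlap. Of the dendritic cell and MHC class II list 5 of 7 tested genes lay above the helpers, 4 by at least 2-fold, and the list summed to 160 to 190.3 FPKM against 136, 207 and 19 in Th1, Th2 and Th17 cells. Zbtb46, a dendritic cell factor, was at 3.03, 3.52 and 2.45 FPKM against 0.591 or less in each of the 7 other libraries, whereas Itgax, Siglech and Clec9a, other dendritic cell genes, were at 0.0291 FPKM or less in Bach2KO. Both tested genes of the CD8, natural killer and γδ T cell list lay above the helpers: Cd8a was at 2.30, 2.30 and 2.09 FPKM against 0.0651 or less, and Cd8b1 at 9.75, 8.84 and 8.98 against 7.39 or less. Both were higher than in WT, by 2.2 and 0.84 (limma adjusted p = 6.6e-06 and 0.0002), and Ncr1 and Klra8, natural killer cell genes, were listed at 0 in all 3. Myeloid markers summed to 0.449 to 0.829 FPKM in Bach2KO and 0.441 to 2.01 in helpers but to 7.28 to 8.08 in WT iTreg libraries, where Itgam and Fcgr3 made up most of the sum, with S100a8 and S100a9 at 0 in Bach2KO. Without any listed marker of other cell types, an alternative added after the data were seen, 212 loci lay at least 2-fold above and 126 below, and the part of these markers in other results was not tested.

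Bach2KO iTreg cells had a set of effector transcripts that was low or absent in each helper library. In bulk samples such as these, fewer cells of a type and less RNA per cell cannot be told apart. A Bach2KO library was at least 2-fold from a helper library at 13.6 to 22.0% of loci, against 20.4 to 33.6% for a WT iTreg library and 29.7 to 37.1% for naive cells. The 3152 loci above all 3 helpers were 27.7% of loci tested and the 1926 below were 16.9%. These counts moved with the scaling of the libraries: equal sums gave 2285 above and 2424 below, quantile normalization 2350 and 2471, and median ratio scaling 2569 and 2363. Most gaps were small, with a median of 0.237 above and 0.216 below, so the account rests on the loci with a gap of at least 1 and a mean of at least 2 FPKM on the higher side. Those were 219 above (1.92%) and 126 below (1.11%), and under the 3 scalings tried they ranged from 181 to 194 above and stood at 141 below. Without the Th17 library they were 475 and 444, and without the Th2 library 197 lay below. Just inside the margin lay Hcst and Traf5 above (gap 1.01 each) and Smox and Ttc3 below (1.01 each), and just outside lay Gpr55 above and Ecm1 below (0.99 each).

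Apart from Y-linked genes, the 3 widest gaps above the helpers were those of a chemokine and 2 calcium-binding proteins. Ccl1, a chemokine that attracts cells with the receptor CCR8, was at 97.0, 142 and 55.2 FPKM in Bach2KO replicates 1, 2 and 3, and it was listed at 0 in the Th1, Th2, Th17 and naive libraries. S100a6, a small calcium-binding protein of the S100 family, was at 189.5, 237 and 206 FPKM against 5.4 (Th1), 3.87 (Th2) and 5.99 FPKM (Th17). Its neighbour S100a4, a family member tied to cell motility, was at 40.8, 59.2 and 33.4 FPKM and did not pass 0.348 FPKM in any helper. All 3 replicates of each gene were above every other library of the series, naive and WT iTreg included.

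Il9, a growth factor gene of mast cells and of a separate helper subset, was at 59.7, 20.7 and 73.7 FPKM in the deficient cells and at 0 (Th1), 0.140 (Th2) and 0.774 FPKM (Th17). Eomes, a T-box factor of cytotoxic cells, was at 16.5, 19.6 and 14.6 FPKM against at most 0.430 in a helper. Cxcr3, a chemokine receptor known from Th1 cells, was at 63.4, 50.9 and 65.9 FPKM, above the Th1 library (1.24), the Th2 library (listed at 0) and the Th17 library (3.07). Il9 was lowest in replicate 2, where Ccl1, S100a6 and Eomes were highest, and no Bach2KO value of Il9, Eomes or Cxcr3 overlapped a helper value. Among genes with a Bach2KO mean of at least 5 FPKM, the others of the 12 widest gaps were Ly6g5b, Ifi203, H2-Aa and the Y-linked genes Eif2s3y, Ddx3y and Kdm5d.

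**Figure D1:**
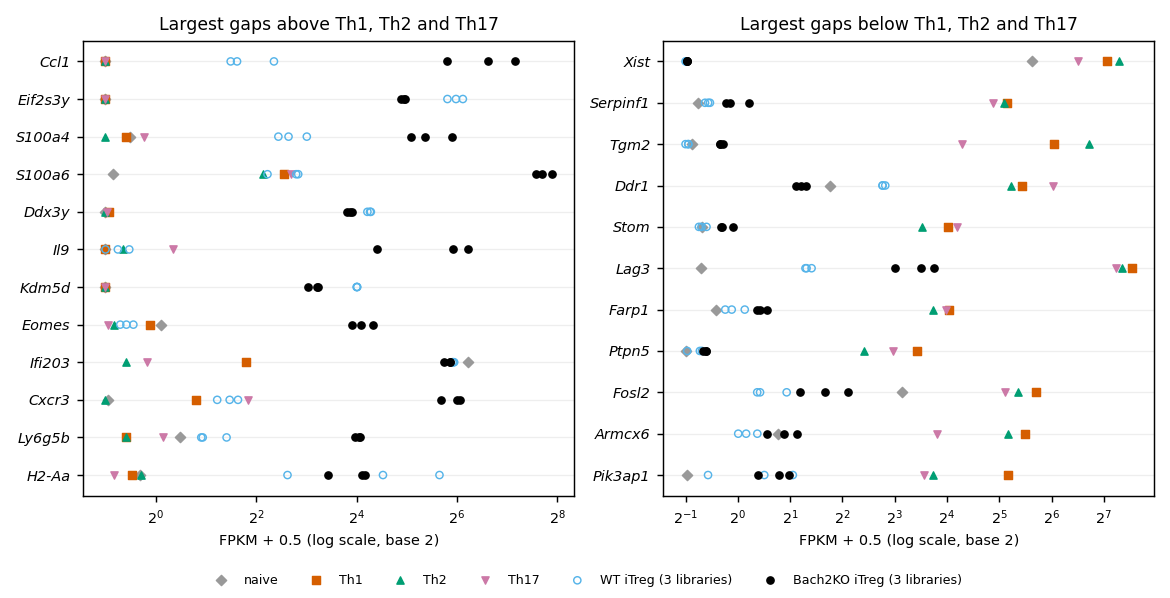
FPKM + 0.5 on a log axis in each of the 10 RNA libraries for the 12 genes with the widest gap above (left) and 11 of the 12 with the widest gap below (right) the Th1, Th2 and Th17 libraries, 1 point per library. Filled black points are the 3 Bach2KO iTreg libraries, and open blue points, the 3 WT iTreg libraries, sit beside them for Ifi203 and far below them for S100a6.

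The comparison with WT iTreg cells, which share the culture and also carry Y-linked transcripts, is the one with replicates on both sides. The Y-linked levels were not equal: all 4 tested Y-linked genes were called lower in Bach2KO than in WT (median -0.62). Eif2s3y fell by 1.03 (SE 0.081, limma adjusted p = 7.6e-05). The cause was not tested. In limma with Benjamini-Hochberg adjustment, 4682 of 11403 genes (41.1%) were higher and 3828 (33.6%) lower in Bach2KO than in WT iTreg libraries. Equal sums turned this split to 3235 higher and 5409 lower and moved the median change of all genes from 0.072 to -0.187, so small changes have no firm sign. Of the 219 loci at least 2-fold above the helpers, 151 were called higher than WT (68.9%), 37 lower and 31 neither. Of the 126 below, 93 were in that fit, where 28 were higher, 47 lower and 18 neither. The same Bach2KO libraries stand in both comparisons, so these counts are not independent of the choice of members.

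Ccl1 rose from 3.17 ± 1.26 to 98.0 ± 43.3 FPKM between WT and Bach2KO iTreg cells (SD, n = 3 each), a log2 change of 4.70 (SE 0.39, limma adjusted p = 9.4e-05). S100a6 rose from 5.76 ± 1.37 to 210.9 ± 24.1 FPKM, by 5.10 (SE 0.18, limma adjusted p = 4.4e-06). Il9 rose by 6.27 (SE 0.47, limma adjusted p = 6.3e-05) and Eomes by 4.69 (SE 0.13, limma adjusted p = 2e-06). Ifi203, at 57.4, 57.9 and 53.3 FPKM in Bach2KO and at 2.97 or less in helper cells, was no higher than in WT iTreg cells (60.1, 61.0 and 59.9) or naive cells (74.0). Its change of -0.10 was not called (SE 0.044, limma adjusted p = 0.076), although the 3 other scalings called it lower, at -0.18 to -0.38. Ifi203 thus stood apart from the helpers in every iTreg library.

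**Figure D2:**
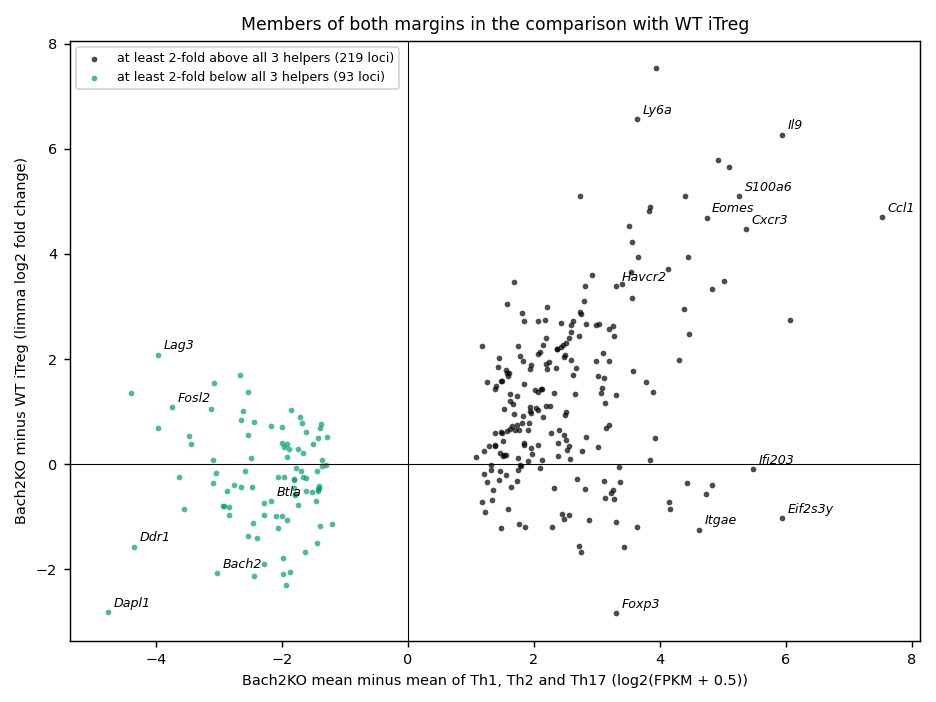
Difference between Bach2KO and the mean of the 3 helper libraries (horizontal, log2(FPKM + 0.5)) against the limma log2 fold change between Bach2KO and WT iTreg cells (vertical), 1 point per locus, for 219 loci at least 2-fold above (black) and 93 at least 2-fold below (green) the helpers. Il9, Ccl1, S100a6 and Ly6a sit high on the right, while Foxp3 and Itgae, also above the helpers, sit below 0.

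Of the 219 loci, 91 (0.799% of loci tested) were at least 2-fold above all 7 other libraries, naive and WT iTreg included. By the rule all of them exceed WT, so that share says nothing further. Without the Th2 library they were 143. After S100a6, Il9, Cxcr3, Eomes, Ccl1 and Havcr2, wide gaps to all 7 were those of Serpina3g, a serine protease inhibitor of activated T cells (64.1, 65.4 and 52.5 FPKM, with 6.26 or less in a helper), Adam8, a surface metalloprotease (12.2, 11 and 13.2 against 1.12 or less), Cd36, a scavenger receptor for lipids (4.88, 6.89 and 4.84 against 0.263 or less), and Ccl3, a chemokine of inflammation (41.7, 63.0 and 19.2 against 2.89 or less). Serpina3g lies in a run of near copies with Serpina3f and Serpina3h on chromosome 12, so its reads may be shared with them. In the other direction 4 loci (0.0351%) lay at least 2-fold below all 7: Bach2 itself, Dapl1, Rab6b and Appl2. Dapl1 was listed at 0 in Bach2KO replicates 1 and 2 and stood at 0.176 FPKM in replicate 3, against 114 FPKM in naive, 33.6 in Th1, 39.1 in Th2, 1.94 in Th17 and 2.53 to 4.79 in WT iTreg cells. Rab6b, a Rab GTPase, was at 1.4, 1.13 and 1.24 FPKM against 4.62 to 8.69 elsewhere. These 4 were 8 without the Th17 library, 9 with a pseudocount of 0.1, and 11, 14 and 7 under equal sums, quantile normalization and median ratio scaling.

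All 6 iTreg libraries, of both genotypes, were at least 2-fold above the helpers at 78 loci (0.685%) and at least 2-fold below them at 82 (0.72%). Without the Th17 library these were 259 and 358, and without the Th2 library 141 lay below. Foxp3, the factor that defines regulatory T cells, was among the 78 but at 7.68, 19.7 and 5.81 FPKM in Bach2KO against 69.6, 66.7 and 81.1 in WT iTreg cells and at most 1.35 in a helper. Itgae, the CD103 integrin chain induced by TGF-β, was at 35.7, 44.7 and 31.7 FPKM against 91.1, 108 and 71.2 in WT iTreg cells, with 5.70 in Th17 and less in the other helpers. Both therefore lay between the WT iTreg and the helper level, with no overlap, and both fell against WT: Foxp3 by 2.84 (SE 0.42, limma adjusted p = 0.0012) and Itgae by 1.25 (SE 0.19, limma adjusted p = 0.0012). Of the 78, 15 were called higher, 39 lower and 24 neither in Bach2KO against WT.

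Bach2 peaks of WT iTreg cells are a readout that the choice of members did not use. A deposited peak summit lay within 10 kb of the gene start at 123 of 210 loci at least 2-fold above (58.6%), at 54 of 86 above all 7 libraries (62.8%) and at 51 of 121 below (42.1%), against 4631 of 11189 tested loci with a known start (41.4%). With peaks of a score of at least 100 the shares were 40.5%, 51.2% and 28.1% against 26.3%, and within 1 kb 23.8%, 25.6% and 14.9% against 16.3%. Within 50 kb they were 83.3% and 84.9% above and 79.3% below, against 79.2%. These are shares of 1 ChIP library with no test, and 63 of the 219 loci lie within 100 kb of another of them, so a peak can be counted at more than 1 member.

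**Figure D3:**
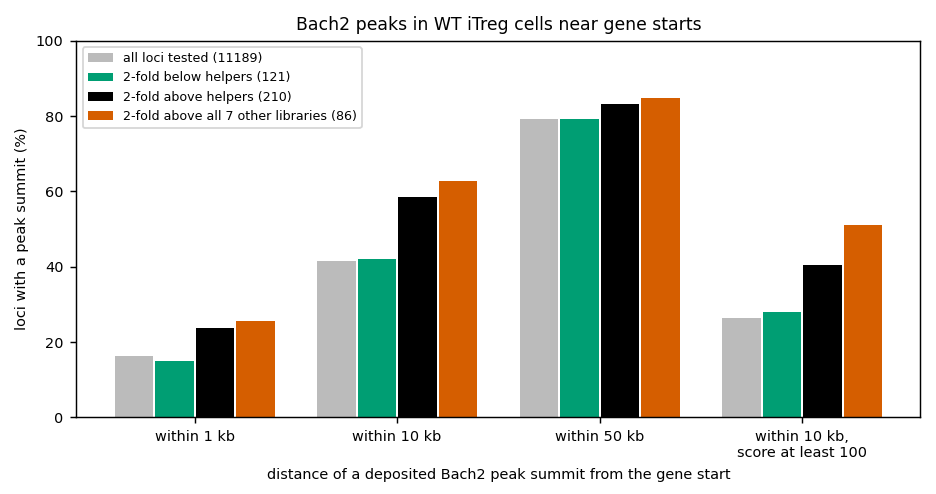
Share of loci with a Bach2 peak summit near the gene start, for all loci tested (grey), loci at least 2-fold below the helpers (green), at least 2-fold above the helpers (black) and at least 2-fold above all 7 other libraries (orange), with the number of loci in brackets. The black and orange bars exceed the grey at 10 kb (58.6% and 62.8% against 41.4%) and come near it at 50 kb.

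The letters under some of these summits are shown because TGANTCA, the core shared by AP-1 and Bach2 sites, is what a Bach2 peak at a member gene could hold. Windows of 81 bases centred on the summit were read from the plus strand of mm9, with each TGANTCA in capitals. The motif reads the same on both strands. Only windows that hold it were eligible to be shown, so they do not stand for all peaks at these genes. The windows are chr11:81988494-81988574 (4780 bases past the start of Ccl1, intergenic), chrX:98925515-98925595 (3931 bases past the start of Cxcr3, intergenic), chr11:46268180-46268260 (at -213 from the start of Havcr2, intergenic), chr9:123677667-123677747 (intron of Ccr9), chr15:74826031-74826111 (intron of Ly6a), chr1:192926998-192927078 (intron of Batf3, which matched Th1) and, for a gene below the helpers, chr2:157980527-157980607 (at -8439 from the start of Tgm2, intergenic).
Ccl1: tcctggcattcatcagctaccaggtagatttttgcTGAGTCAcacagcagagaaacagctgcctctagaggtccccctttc
Cxcr3: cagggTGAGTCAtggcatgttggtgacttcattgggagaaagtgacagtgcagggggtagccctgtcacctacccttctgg
Havcr2: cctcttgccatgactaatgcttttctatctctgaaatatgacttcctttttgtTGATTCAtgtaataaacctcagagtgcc
Ccr9: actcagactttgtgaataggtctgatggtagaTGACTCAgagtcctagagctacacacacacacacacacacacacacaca
Ly6a: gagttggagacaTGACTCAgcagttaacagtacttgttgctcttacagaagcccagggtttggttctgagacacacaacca
Batf3: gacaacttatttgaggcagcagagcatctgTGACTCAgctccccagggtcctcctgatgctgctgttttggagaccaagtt
Tgm2: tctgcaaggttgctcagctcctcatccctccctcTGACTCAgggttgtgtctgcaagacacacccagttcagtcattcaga
The Ccl1 peak, with 186 tags and a fold enrichment of 85.5 in the authors' peak list, holds TGANTCA directly preceded by TGC. The Ly6a window, with 20 tags, does so on the other strand. The strongest peak near Ly6a, with 110 tags, has no TGANTCA within 100 bases of its summit. Peaks without it also lie near Havcr2, Cxcr3 and Batf3. The Havcr2 peak had 99 tags and the Ccr9 peak 102. TGANTCA lay within 100 bases of the summit in 36.1% of the 194 peaks at loci above the helpers and in 36.5% of the 74 at loci below, against 43.1% of all 22494 peaks. The form preceded by TGC, on either strand, was in 10.3% and 5.41% against 10.4%. Both peaks near S100a6 and S100a4 lack TGANTCA in this window. A match describes these letters only, and its absence says nothing about binding.

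Of the lists, that of cytokines and chemokines had the most members at least 2-fold above the helpers, 8 of 29, but lists differ in size. The Th1 list had 7 of 23, the dendritic cell and MHC class II list 4 of 7 and the Y-linked list 4 of 4. The last 2 lists had 12 and 6 genes found, and genes near 0 in helpers were tested only where Bach2KO was high. The same rule held for every list. It passed 29 of 36 cytokine and chemokine genes found, 23 of 24 Th1 genes and 22 of 30 interferon genes. Of cytotoxic and effector genes it passed 21 of 26, and of chemokine receptors and homing genes 27 of 34. Shares of tested members above or below the helpers follow in part from this rule. The cytokine and Th1 lists share Ccl3 and Ccl4 and each had 6 members at least 2-fold above all 7 other libraries. Beside these counts, 1.92% of all loci tested lay at least 2-fold above the helpers and 0.799% at least 2-fold above all 7. Of 29 tested members of the list of effector cytokines and chemokines, 14 (48.3%) lay above and 2 (6.9%) below all 3 helpers. Over all loci tested 27.7% lay above and 16.9% below, the shares to set beside the counts of each list that need no margin. The median difference from the helper mean was 1.69, against 0.09 over all loci. By at least 2-fold 8 members lay above: Ccl1, Il9, Ccl3, Ccl4, Lta, Ltb, Xcl1 and Ebi3. Ccl4, a partner of Ccl3 in the same cluster, was at 83.6, 129 and 42.7 FPKM against 13.8 (Th1), 1.02 (Th2) and 12.6 FPKM (Th17). Lta, the lymphotoxin-α gene, was at 298, 503 and 242 FPKM against 56.2, 83.9 and 9.42. Both were highest in replicate 2, as were Ccl1 and Ccl3, and every replicate exceeded each helper. Ccl3, Ccl4 and Lta rose against WT by 5.79, 4.23 and 2.57 (SE 0.45, 0.40 and 0.26, limma adjusted p = 7.1e-05, 0.00016 and 0.00023). Against WT, 21 of the 26 members in the fit were higher and 1 lower. Over all tested loci in that fit 42.6% were higher and 33.6% lower, which holds for each list. Ebi3, a subunit of IL-27 and IL-35, was at 18.6, 14.3 and 21.8 FPKM against 6.67 or less.

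Of chemokine receptors, integrins and homing genes, 10 of 27 lay above (37.0%) and 2 below (7.41%), against 27.7% and 16.9% of all loci (median 0.64). Beside Cxcr3, Itgae and Itgb7, 2-fold gaps were held by Ccr9, a receptor for homing to the small intestine (6.56, 4.42 and 6.25 FPKM, at most 0.0316 in a helper), and Fut7, a fucosyltransferase that makes selectin ligands (20.1, 23.5 and 19.8 against 6.93 to 7.88). Ccr9 rose by 1.78 (SE 0.19) and Fut7 by 1.58 (SE 0.12) against WT (limma adjusted p = 0.00027 and 6.7e-05). Of 26 members in the fit, 12 were higher and 11 lower than in WT, against 42.6% and 33.6% of all loci in it.

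Of inhibitory and costimulatory receptors 6 of 27 lay above (22.2%) and 3 below (11.1%), no more than the 27.7% and 16.9% of all loci (median -0.01, and -0.08 to -0.20 under the other scalings). Havcr2, which encodes the inhibitory receptor TIM-3, was at 5.03, 4.92 and 4.66 FPKM and at 0.0737 or less in the helpers, and rose by 3.39 against WT (SE 0.079, limma adjusted p = 1.3e-06). Tnfsf11, the RANK ligand gene, was at 17.4, 20.7 and 13.6 FPKM against 5.94 or less. Lag3, which encodes another inhibitory receptor, was the reverse: 10.8, 7.54 and 13 FPKM against 186 (Th1), 162 (Th2) and 151 FPKM (Th17). Lag3 nevertheless rose against WT, where it was at 1.95 to 2.16 FPKM, by 2.08 (SE 0.19, limma adjusted p = 0.00013), so its Bach2KO level lay between WT iTreg and helper levels. Btla, also inhibitory, was at 13.5, 15.3 and 11.9 FPKM against 34.7 to 103 in helpers and 22.0 to 23.2 in WT iTreg cells.

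Of 18 tested S100, galectin and annexin genes, 12 lay above (66.7%) and 1 below (5.56%), against 27.7% and 16.9% of all loci (median 0.93). By at least 2-fold 5 lay above, and 17 were higher and 1 lower than in WT. Anxa1, annexin A1, was at 8.19, 7.44 and 10.4 FPKM against 1.58 or less, and Crip1, a small LIM-domain protein, at 615, 656 and 641 FPKM against 176.5 to 239. Ly6a, which encodes Sca-1, was at 1466, 1732 and 1479 FPKM against 680 (Th1), 8.62 (Th2) and 317 FPKM (Th17), and Ly6e at 656, 712 and 636 against 70.6 to 174. Of 7 tested Ly6 genes 4 lay above (57.1%) and 0 below, though members of this family resemble each other and may share reads. Cytotoxic and effector genes gave 10 of 21 above (47.6%) and 1 below (4.76%), median 0.76. The granzyme gene Gzmc was at 6.51, 3.81 and 6.50 FPKM against 0.903 or less, while Cst7, which encodes the protease inhibitor cystatin F, was below at 20.9, 16.9 and 23.2 against 54.3 to 152.

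Interferon-induced genes lay above the helpers at 14 of 22 tested members (63.6%) and below at 0, against 27.7% and 16.9% of all loci (median 1.05). By at least 2-fold 3 lay above. Irgm1, an immunity-related GTPase, was at 104.5, 133 and 91.1 FPKM against 29.5 (Th1), 2.75 (Th2) and 20.9 FPKM (Th17), and Gbp4, a guanylate-binding protein, at 90.4, 105 and 85.0 against 32.4, 13.3 and 1.83. Both also rose against WT, by 1.44 and 1.96 (SE 0.14 and 0.082, limma adjusted p = 0.00019 and 7.6e-06). Members of such families recur as neighbours: among the 22 runs of members within 100 kb, picked for mention after their values were seen, are Gbp4, Gbp10, Gbp6 and Gbp11 on chromosome 5 and an 8-gene run of 510 kb on chromosome 1 that holds Pyhin1, Pydc3, Ifi204, Mndal, Mnda, Ifi203 and Ifi205. The Gbp genes rose against WT, by 1.96 to 3.95. The chromosome 1 genes did not: Pyhin1, Pydc3, Ifi204, Mndal, Mnda and Ifi205 fell by 0.48 to 1.57 (limma adjusted p between 9e-06 and 0.0011) and stayed above the helpers. Copies in these runs are alike, so reads may be split between them.

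**Figure D4:**
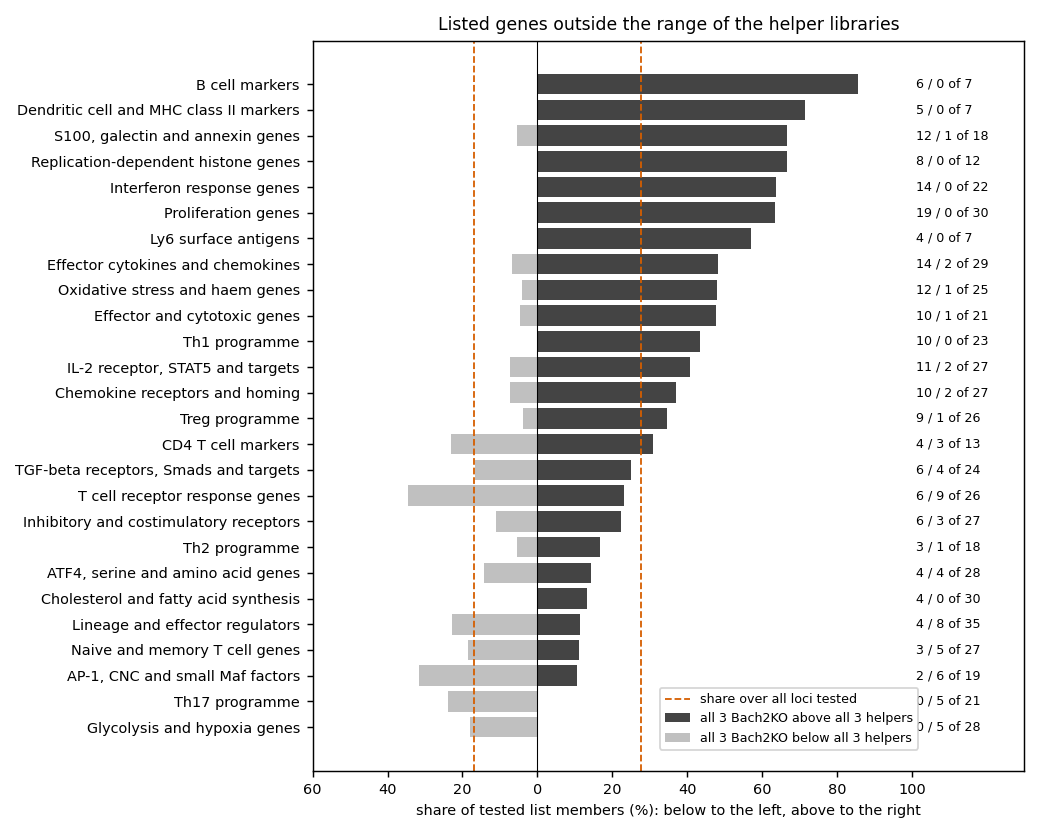
Share of the tested members of each list whose 3 Bach2KO values all lay above (dark, right) or all below (light, left) the 3 helper values, with the counts at the right (above / below of tested), for lists of at least 7 tested genes. Dashed lines mark the shares over all loci tested, 27.7% above and 16.9% below, and the Th17 and glycolysis lists have no member above.

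Genes of DNA replication and mitosis lay above the helpers at 19 of 30 members and below at 0 (median 0.59; 63.3% above, against 27.7% of all loci), and 29 of 29 in the fit were higher than in WT. Most gaps were small, and 2 members lay at least 2-fold above the helpers. Tyms, thymidylate synthase, was at 16, 16.3 and 15.8 FPKM against 3.08 to 5.06, and Ccne1, cyclin E1, was at 34.1, 39.7 and 33.6 against 11.6 to 15.5. Replication-dependent histone genes, whose transcripts lack poly(A) tails, gave 8 of 12 above (66.7%) and 0 below (median 1.02), with 0 at least 2-fold above. Their sum was 58.7 to 59.6 FPKM against 23.0 to 32.0 in helpers and 54.5 in naive cells. Of the oxidative stress list, which holds genes that Bach factors can repress, 12 of 25 lay above (48.0%) and 1 below (4.0%), median 0.27. By at least 2-fold 1 lay above. That one, Nqo1, a quinone reductase, was at 2.28, 3.20 and 1.88 FPKM against 0.191 or less, and Txnrd1, thioredoxin reductase, at 37.6, 45.0 and 34.5 against 18.3 to 21.4. Scaling lowered some of these counts: quantile normalization left 15 of 30 proliferation genes and 10 of 25 stress genes above.

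The IL-2 receptor and STAT5 list had 11 of 27 above (40.7%) and 2 below (7.41%), against 27.7% and 16.9% of all loci (median 0.54). By at least 2-fold 2 lay above, Il9 and Lta, which are also on the cytokine list. The labels name IL-2 for the iTreg cultures and not for the helper cultures. Pim1, a kinase gene induced by STAT5, was at 280.4, 283 and 267 FPKM against 83.5 to 154. Prdm1, which encodes the repressor Blimp-1, was at 6.84, 3.93 and 7.99 FPKM against 1.74 or less, a gap of 0.99 just short of the margin, and rose by 3.06 against WT (SE 0.26, limma adjusted p = 0.00011). Il2ra and Il2rb, subunits of the IL-2 receptor, were not outside the helper range in all 3 replicates: Il2ra was at 288, 379.8 and 268 FPKM against 232 (Th1), 361 (Th2) and 138 FPKM (Th17), and Il2rb at 361, 352 and 384 against 306, 422 and 187.

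Below the helpers, the widest gap after Xist was that of Serpinf1, a secreted serpin (0.655, 0.355 and 0.404 FPKM against 34.9, 33.6 and 28.9), followed by Tgm2, tissue transglutaminase (0.285, 0.292 and 0.321 against 65.5, 104 and 19). Ddr1, a collagen receptor, was at 1.66, 1.82 and 1.99 FPKM against 36.7 to 64.8, and fell against WT by 1.57 (SE 0.072, limma adjusted p = 1e-05). With a helper mean of at least 5 FPKM, the 12 widest gaps also included Stom, Farp1, Ptpn5, Armcx6, Pik3ap1, Lag3 and Fosl2. WT iTreg cells were low for most of these too, at 0.191 FPKM or less for Serpinf1, 0.0189 or less for Tgm2 and 0.160 or less for Stom. Of the 126 loci 12 lie on chromosome X (9.52%, against 3.25% of loci tested), among them Armcx6, Armcx3 and Armcx2 in 1 run. The sex of the source moves with them, and its part was not tested.

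Of 19 tested members of the AP-1, CNC and small Maf list 2 lay above and 6, Bach2 itself among them, below (median -0.20), which is 10.5% and 31.6% against 27.7% and 16.9% of all loci. Fosl2, which encodes the AP-1 subunit FRA2, was at 2.67, 1.79 and 3.79 FPKM against 51.8 (Th1), 40.7 (Th2) and 33.9 FPKM (Th17), and at 0.793 to 1.41 in WT iTreg cells. Jund, another subunit, lay above at 262, 255.5 and 235 FPKM against 82.2 to 84.2. T cell receptor response genes gave 6 of 26 above (23.1%) and 9 below (34.6%), median -0.19. Irf4, a factor induced by that receptor, was at 91.0, 89.9 and 81.6 FPKM against 162, 251 and 229, and Nr4a1 at 29.3, 40.8 and 24.6 against 71.6 to 82.3. Irf4 had risen against WT by 2.56 (SE 0.13, limma adjusted p = 1.3e-05).

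Glycolysis and hypoxia genes had 0 of 28 above and 5 below (median -0.54), and the 17.9% below is near the 16.9% of all loci, although 25 of 28 were higher and 1 lower than in WT. The median was -0.86 against Th1 and -0.97 against Th2 but 0.10 against Th17, where equal sums alone moved the median of all loci from 0.091 to -0.078. Hif1a, the hypoxia factor, was at 73.1, 64.4 and 83.0 FPKM against 201, 143 and 259, and had risen by 1.80 from WT (SE 0.094, limma adjusted p = 1.6e-05). Eno2, an enolase, was at 1.05, 0.755 and 0.993 FPKM against 4.17 to 11.1. Of the TGF-β list 6 of 24 lay above (25%) and 4 below (16.7%), near the shares over all loci (median 0.68). Tgfb3 was at 0.676, 0.432 and 0.962 FPKM against 24.4, 23.7 and 6.03. It did not reach the level needed for the fit against WT. Genes of cholesterol synthesis had 4 of 30 above (13.3%) and 0 below, and ATF4 targets 4 of 28 above (14.3%) and 4 below (14.3%). Their medians from the helper mean, -0.01 and 0.01, join unlike differences from single helpers. Against Th1, Th2 and Th17 the medians were -0.24, -0.37 and 0.73 for cholesterol synthesis and -0.46, -0.08 and 0.69 for ATF4 targets. Against WT 30 of 30 and 22 of 25 were higher. Of 35 lineage and effector regulators, 4 lay above (11.4%) and 8 below (22.9%), with a median of 0.21, and -0.03 under quantile normalization.

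The lineage factors of Th1 and Th2 cells were both measured in the deficient cells. Tbx21, which encodes T-bet, was at 11.3, 14.7 and 9.18 FPKM against 35.5 (Th1), 0.0198 (Th2) and 1.01 FPKM (Th17). Gata3 was at 18.5, 14.1 and 19.1 FPKM against 9.77, 102 and 5.31. Each was under the helper of that lineage and above the other helpers in all 3 replicates.

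The cytokines differed more. Il4 was at 13.5, 6.70 and 14.4 FPKM against 18.6 in Th2, 0.118 in Th1 and 0 in Th17 cells. Il13 was at 15.6, 6.65 and 16.8 FPKM against 6.02 in Th2 cells and was listed at 0 in the others; its lowest replicate and the Th2 value lie close, with a gap of 0.13. Il17a was at 0.817, 1.90 and 0.606 FPKM against 145 in Th17 cells, and Il17f at 10.9, 17.8 and 4.96 against 668. Il10 was at 9.79, 2.61 and 13.5 FPKM against 0.0855, 3.28 and 2.47, so replicate 2 overlapped the helpers. Il4, Il13 and Il10 were all lowest in replicate 2. Il4 rose by 4.44 and Il10 by 3.86 against WT (SE 0.29 and 0.55, limma adjusted p = 3.4e-05 and 0.00097). The Th1 list had 10 of 23 members above (43.5%) and 0 below, with 7 at least 2-fold above. The Th2 list had 3 of 18 above (16.7%) and 1 below (5.56%), and the Th17 list 0 of 21 and 5 (23.8%). Over all loci the shares were 27.7% and 16.9%. The 3 of the Th2 list were 2 under quantile normalization and 1 under median ratio scaling, where the gap of Il13 was -0.0039. The Treg list had 9 of 26 above (34.6%) and 1 below (3.85%), median 0.49. The naive and memory list had 3 of 27 above (11.1%) and 5 below (18.5%), median 0.20, while 23 of its 27 genes were lower than in WT. Bach2 itself is on this list and is among the 5 and the 23. The median difference was -0.29 from Th1 over the Th1 list, -0.64 from Th2 over the Th2 list and -2.56 from Th17 over the Th17 list.

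Genes that matched 1 helper only numbered 58 for Th1 (0.509% of loci tested), 51 for Th2 (0.448%) and 309 for Th17 (2.71%). A match means that the helper was within 0.5 of the Bach2KO mean and that each Bach2KO value was at least 1 from both other helpers, with 2 FPKM or more in the highest of the 6 libraries. The matched level was high, above both other helpers, for 32, 24 and 118 of them and low for 5, 25 and 190. These counts rest on which helpers are compared: without Th2 the Th1 matches were 289 and without Th17 192, the Th2 matches were 315 without Th1 and 129 without Th17, and without Th1 the Th17 matches were 574. Th17 was also the nearest helper to every iTreg library and to naive cells, by the share of loci at least 2-fold apart. For Bach2KO libraries that share was 13.6 to 15.7% from Th17 and 16.2 to 22.0% from Th1 and Th2. For WT iTreg libraries it was 20.4 to 22.2% and 29.7 to 33.6%. Naive cells had 29.7% from Th17, 37.1% from Th1 and 37.0% from Th2. The Th17 culture is the helper culture that shares TGF-β1 with the iTreg cultures, at 2 ng/ml against 5 ng/ml, and their parts in the count cannot be told apart.

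Among the 58 genes that matched Th1 were 2 of the 22 interferon genes tested, Stat2 and Bst2 (both named after their values were seen), and of the 23 Th1 genes only Ifng. Ifng, the IFN-γ gene, was at 10.6, 22.8 and 3.99 FPKM against 12.4 in Th1 cells and was listed at 0 in Th2 and Th17 cells. Irf8, an interferon regulatory factor, was at 131, 166 and 114 FPKM against 125 (Th1), 23.2 (Th2) and 18.6 FPKM (Th17), and rose by 2.69 against WT (SE 0.19, limma adjusted p = 5.3e-05). Ms4a4b, a surface protein of the MS4A family, was at 246, 259 and 221 FPKM against 249.6, 14.8 and 30.0, and was higher still in WT iTreg cells, at 348 to 361. Batf3, at 11, 4.88 and 13.8 FPKM, matched Th1 (6.77) and was far below Th2 (59.9). Ifng was lowest in replicate 3 and highest in replicate 2, and its Bach2KO range spans the Th1 value. Psmb9 and B2m, genes of antigen presentation that were noted after their values were seen, also matched Th1, at 314 to 346 and 2457 to 2697 FPKM against 241 and 1933.

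With Th2 they shared a low level of Timp1, Slc4a11, Il21, Tns4 and Mctp2 and a high level of Rnf19b, a ubiquitin ligase gene (175, 162 and 158 FPKM against 139 in Th2, 43.7 in Th1 and 27.8 in Th17 cells). Rnf19b rose by 2.84 against WT (SE 0.054, limma adjusted p = 8e-07). Timp1, an inhibitor of metalloproteases, was at 0.497 FPKM or less in Bach2KO and 0.688 in Th2 cells against 36.0 in Th1 and 44.6 in Th17 cells. Cish and Socs1, inhibitors of cytokine signalling, and Ccr4, picked after their values were seen, matched Th2 at a high level, Cish at 193 to 232 FPKM against 188, Socs1 at 141 to 181 against 125 and the chemokine receptor Ccr4 at 70.4 to 87.1 against 105.

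With Th17 they shared a high level of Cxcr6, a chemokine receptor of tissue T cells (20.5, 12.5 and 25.2 FPKM against 15.2 in Th17 and 0.307 or less in Th1 and Th2 cells), of Apol9b (10.4, 12.1 and 9.62 against 12.2) and of Fcrl1 (8.92, 6.82 and 7.27 against 10.9). They shared a low level of Stc2, a secreted glycoprotein (0.634, 0.231 and 0.963 FPKM against 0.776 in Th17, 36.8 in Th1 and 95.8 in Th2 cells). Tgfbr2 and Pmepa1, a receptor and a target of TGF-β picked after their values were seen, were at 62.4 to 68.0 and 22.2 to 24.3 FPKM against 53.0 and 18.9 in Th17 cells and 18.8 or less in the others. Cxcr6 rose by 2.07 against WT (SE 0.26, limma adjusted p = 0.00058), while Apol9b fell by 2.71 (SE 0.097, limma adjusted p = 4.4e-06), so a match with Th17 came from both directions. Of the 250 Th17 matches in the fit, 106 were higher (42.4%) and 79 lower (31.6%) than in WT. These shares are near the 42.6% and 33.6% of all tested loci in that fit.

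**Figure D5:**
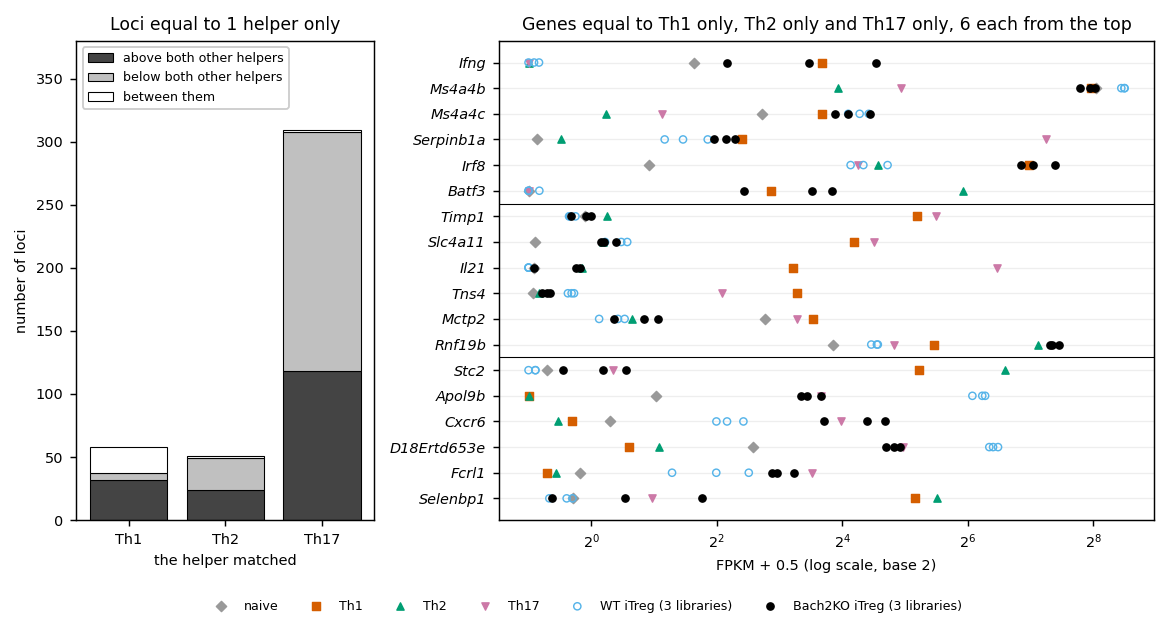
Left, number of loci at which Bach2KO cells matched 1 helper only, split by whether the shared level was above both other helpers, below both or between them. Right, FPKM + 0.5 on a log axis in each of the 10 libraries for the 6 genes with the widest gap in each class. The Th17 class is the largest, with 190 of 309 loci at a shared low level, and Bach2KO points sit with 1 helper and away from the other 2.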

How the data were processed

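RNA of 10 libraries and 1 Bach2 ChIP library were used. FPKM and its confidence bounds were made by the authors from unique 50-base reads, per the labels' protocols and file headers, with TopHat and Cufflinks named in the submitters' processing notes (versions not given in the sources used here). The deposited peak list, called with MACS 1.4.0beta on mm9 per the file headers, gives for each peak a tag count, a score (a multiple of the negative log10 of p), a ratio of fold enrichment and an FDR in percent. Only deposited tag counts, scores and fold ratios were used, as the authors' values within that list.

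Loci whose mean over the compared libraries reached 0.5 FPKM were analysed on log2(FPKM + 0.5). A minimum length of 300 bp applied to the comparisons with helpers and not to the fit against WT. Bach2KO and WT iTreg libraries were fitted by limma 3.58.1 (R 4.3.3, adjusted p of at most 0.05, Benjamini-Hochberg), which was tested on simulated data. Helpers, with 1 library each, entered no test. Nothing in the labels says that replicates came from separate cultures, so p-values measure only the spread between these samples. Tables were handled with Python 3.11.15, pandas 2.3.3 and numpy 2.4.6. Peaks were assigned by summit distance to the gene start in an mm9 annotation.

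Members and gene lists were chosen with earlier results of these data known. Genes were named by the widest gap above or below the helpers, above or below all 7 other libraries, or to the unmatched helpers (12, 10 and 6 at most, with a 5 FPKM floor), up to 4 per list, and the lineage genes. Genes noted as picked after their values were seen fall outside this. Pseudocounts, filters, scalings, margins, windows and left-out libraries were the alternatives. Reads implied for genes with a single start, from 12.4 to 24.0 M, are not the full depth and cover counting error only. Near copies may share reads. Values of a few listed genes are not reported here.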

Additional observations from a re-analysis of the deposited data

How the results depend on the processing

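The counts of loci outside the helper range depended most on which helpers were compared and on the margin. Leaving out 1 library gave 3205 to 4707 loci above and 2022 to 3325 below, 223 to 475 at least 2-fold above and 132 to 444 at least 2-fold below. It gave 54 to 289 matches with Th1, 55 to 315 with Th2 and 305 to 574 with Th17. It gave 91 to 143 above and 4 to 8 below all 7 libraries, and 78 to 259 above and 83 to 358 below for all 6 iTreg libraries. For Bach2KO against WT it gave 4223 to 4678 genes higher and 3450 to 3909 lower, and a replicate block gave 4324 and 3512. Same-numbered WT and Bach2KO libraries share only a number: their deviations correlated at -0.0376, -0.0395 and 0.0051.

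A margin of 2 on the log2 scale left 60 loci above and 32 below, 21 above and 0 below all 7 libraries, and 24 above and 21 below for all 6 iTreg libraries. Equality within 0.25 left 30, 24 and 166 matches with Th1, Th2 and Th17, and equality within the Bach2KO range 20, 13 and 114. Without a filter on low values 3098 loci lay below, and with the deposited confidence bounds 1236. Loci below all 7 libraries were 9 with a pseudocount of 0.1, 11 with equal sums, 14 with quantile normalization and 7 with median ratio scaling. The share of loci above with a peak was 23.8% within 1 kb, 83.3% within 50 kb and 40.5% for scores of at least 100. The gap of Il13 turned to -0.0039 under median ratio scaling and -0.08 with the confidence bounds. The cause was not tested. Of the gaps of named genes, 1404 values under the alternatives moved by less than the replicate spread, 283 by more and 2 reversed. Of the Bach2KO to WT changes 1236 kept their call, and 4, all of Ifi203, became called. The alternatives without loci of chromosomes X and Y and without listed markers were chosen after seeing the data and moved no count by over 1.5 times. Depth limits genes near 0 FPKM, and 1 library per helper gives no error for the helper values.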

Other observations

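H2-Ab1, another chain of MHC class II, was at 97.2, 117 and 16.3 FPKM in the Th1, Th2 and Th17 libraries, where H2-Aa did not pass 0.322 FPKM.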
